A study of Mus musculus with 8 samples.

Results

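The MiT/TFE transcription factors, the folliculin complex and the Rag GTPases form a circuit that reads nutrients at the lysosome, and 10 genes of this circuit were taken by symbol from the 22063 genes of the deposited expression table. They are the factor genes Tfeb, Tfe3 and Mitf, the folliculin complex genes Flcn, Fnip1 and Fnip2, the Rag GTPase genes Rragc and Rragd, and Ddit4 and Deptor, which encode inhibitors of mTORC1. Each of the 10 symbols was found once. The study asked whether tranilast, an anti-allergic drug, limits fat accumulation in the liver of mice with diet-induced steatohepatitis, and RNA was sequenced in 8 libraries. The 4 control libraries and the 4 libraries of control with tranilast carried the genotype label WT and the tissue label Liver. The series design gives a high-fat and high-cholesterol (HFHC) diet for both groups, and the sample labels name no diet, dose or age. Per the methods of the study, the mice were male C57BL/6J and received vehicle or tranilast by daily gavage; the dose given to the sequenced mice was not named. The libraries held between 12053036 and 15618789 estimated counts, and the level below which a transcript can be missed, taken as 3 counts for counting error only, was 0.192 to 0.249 CPM over the library totals as deposited, before the TMM scaling that the CPM values of genes below carry. The labels do not say that the libraries came from separate animals, so p-values measure the spread between these libraries, which may be technical.

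The tissue label was checked against marker genes. Of 10 hepatocyte markers, 2 exceeded 3 counts in any library, and Serpina1c, Cps1, Hnf4a and Tat had 0 counts in all 8 libraries. The hepatocyte markers summed to 19, 0, 2 and 4 counts in the control libraries and to 0, 17, 23 and 18 counts with tranilast, with Ttr the most abundant at 0 to 17 counts. Of 14 macrophage markers, 11 exceeded 3 counts, and together they took 1.10%, 1.16%, 1.12% and 1.11% of the counts in the control libraries and 1.18%, 1.19%, 1.15% and 1.13% with tranilast. Lyz2 was the most abundant of them, at 51267 to 68975 counts, Cd163 had 0 counts, and Mertk (0 to 1), Mrc1 (0 to 3), C1qb (0 to 6) and C1qa (0 to 11 counts) were at or near 0. Of the 9 macrophage markers tested, 6 were called lower and 3 higher with tranilast (3 lower and 3 higher with library size alone), where 57.0% of all genes tested were called, and their log2 fold changes ran from -1.42 for Fcgr1 (edgeR adjusted p = 5.06e-09) to 0.27 for Ctsb (edgeR adjusted p = 6.72e-08). Of the 5 cholangiocyte markers 2 exceeded 3 counts, with Spp1, at 41980 to 64910 counts, carrying the sum and Krt7 at 0. Of the 5 Kupffer cell markers, Clec4f, Vsig4 and Timd4 had 0 counts and the list summed to 0 to 8 counts. The data thus went against the tissue label, with hepatocyte markers at or near 0 and some, but not all, macrophage markers abundant, and the libraries are named below by their labels only. The part of cell composition in the differences was not tested; in such bulk RNA, fewer cells of a type and less RNA per cell cannot be told apart.

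When amino acids are plentiful, Rag GTPase heterodimers recruit mTORC1 to the lysosomal surface, where it is switched on by Rheb. Folliculin, bound to FNIP1 or FNIP2, acts on RagC and RagD as a GTPase-activating protein, and this step lets mTORC1 phosphorylate TFEB and TFE3, which then stay in the cytosol. Upon starvation or lysosomal stress, the dephosphorylated factors enter the nucleus and switch on genes of lysosome biogenesis and autophagy; genes encoding their own regulators, among them those of folliculin, FNIP2 and the RagC and RagD proteins, are known to be among their targets.

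Because MiT/TFE factors bind E-box elements, the bases before the RefSeq start sites of the members were searched for the letters of such elements. A window of 250 bases before the start was present for 9 of the 10 members, in 14 windows over alternative starts; Deptor was the other member. The letters CACGTG, which read the same on both strands, were found in the windows of Fnip1 and Rragc. In both genes they were part of TCACGTG, searched on both strands. Among the Rag GTPase genes outside the 10, Rragb held CACGTG at 2 places. These 3 windows are shown because the genes carry the match, with CACGTG in capitals, in the GRCm38.p6 build and on the plus strand. The windows lie at chr11:54437929-54438178 for Fnip1, chr4:123917183-123917432 for Rragc and chrX:153139708-153139957 for Rragb.
Fnip1: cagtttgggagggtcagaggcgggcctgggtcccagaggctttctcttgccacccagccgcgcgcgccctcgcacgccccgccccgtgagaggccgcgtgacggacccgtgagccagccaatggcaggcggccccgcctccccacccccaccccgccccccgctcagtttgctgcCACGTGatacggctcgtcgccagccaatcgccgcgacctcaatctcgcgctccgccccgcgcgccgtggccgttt
Rragc: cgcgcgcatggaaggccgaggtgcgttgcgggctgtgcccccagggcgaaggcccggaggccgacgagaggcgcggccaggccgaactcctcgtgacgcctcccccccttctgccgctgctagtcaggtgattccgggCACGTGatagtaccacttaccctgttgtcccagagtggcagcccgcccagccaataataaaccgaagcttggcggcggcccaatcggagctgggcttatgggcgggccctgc
Rragb: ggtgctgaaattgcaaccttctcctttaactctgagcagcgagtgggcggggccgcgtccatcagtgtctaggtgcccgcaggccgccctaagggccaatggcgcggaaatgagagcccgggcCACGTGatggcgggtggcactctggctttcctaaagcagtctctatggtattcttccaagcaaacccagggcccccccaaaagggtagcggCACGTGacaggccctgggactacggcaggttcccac
The match began 75 bases before the start of Fnip1, 112 bases before that of Rragc, and 127 and 36 bases before that of Rragb. The far end of the Rragc window overlaps an exon of Gm12905, a non-coding gene annotated as antisense. Of all 32851 windows of this length, 6.02% held CACGTG and 3.13% held TCACGTG, against 8.56% and 5.07% of the 10999 windows of tested genes. The M-box TCATGTGA, the CLEAR element, whose 10 bases contain CACGTG, and the ATF4 element TGATGNAA were not found in any window of the members on either strand. Of all windows, 0.846%, 0.240% and 3.45% held these letters, respectively, against 0.555%, 0.555% and 2.05% of the windows of tested genes. A match describes letters only, and the absence of a match says nothing about the factor.

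Across the table, 10770 genes passed the expression filter and were compared with the quasi-likelihood test of edgeR, in which a gene was called at a Benjamini-Hochberg adjusted p-value under 0.05 over all genes tested. Of all genes tested, 57.0% were called. Of the 10 members, 9 were tested and Rragd was not, and all 9 were called. With tranilast, 7 of the 9 tested members were higher and 2 were lower, where 28.2% of all genes tested were called higher and 28.8% lower. The control and tranilast libraries did not overlap for any of the 9, which also held for 49.8% of all genes tested. No tested member reached the log2 fold change of 1.5 that the study used as its threshold, which 1.11% of all genes tested passed. The count of 7 higher and 2 lower was the same with TMM, RLE and upper-quartile factors. Under TMM the median log2 fold change of all genes tested was 0.01 and 49.5% of the calls were higher. With library size alone as the scale, that median shifted by 0.12, 70.9% of the calls were higher, and 1 member was called lower. With upper-quartile factors 62.6% of the calls were higher, and with log2(FPKM + 0.1), where the median shifted by 0.11, 70.4% were, and 6 members were called higher and 0 lower. The direction of each of the 9 members was the same under every scaling tried.

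**Figure D1:**
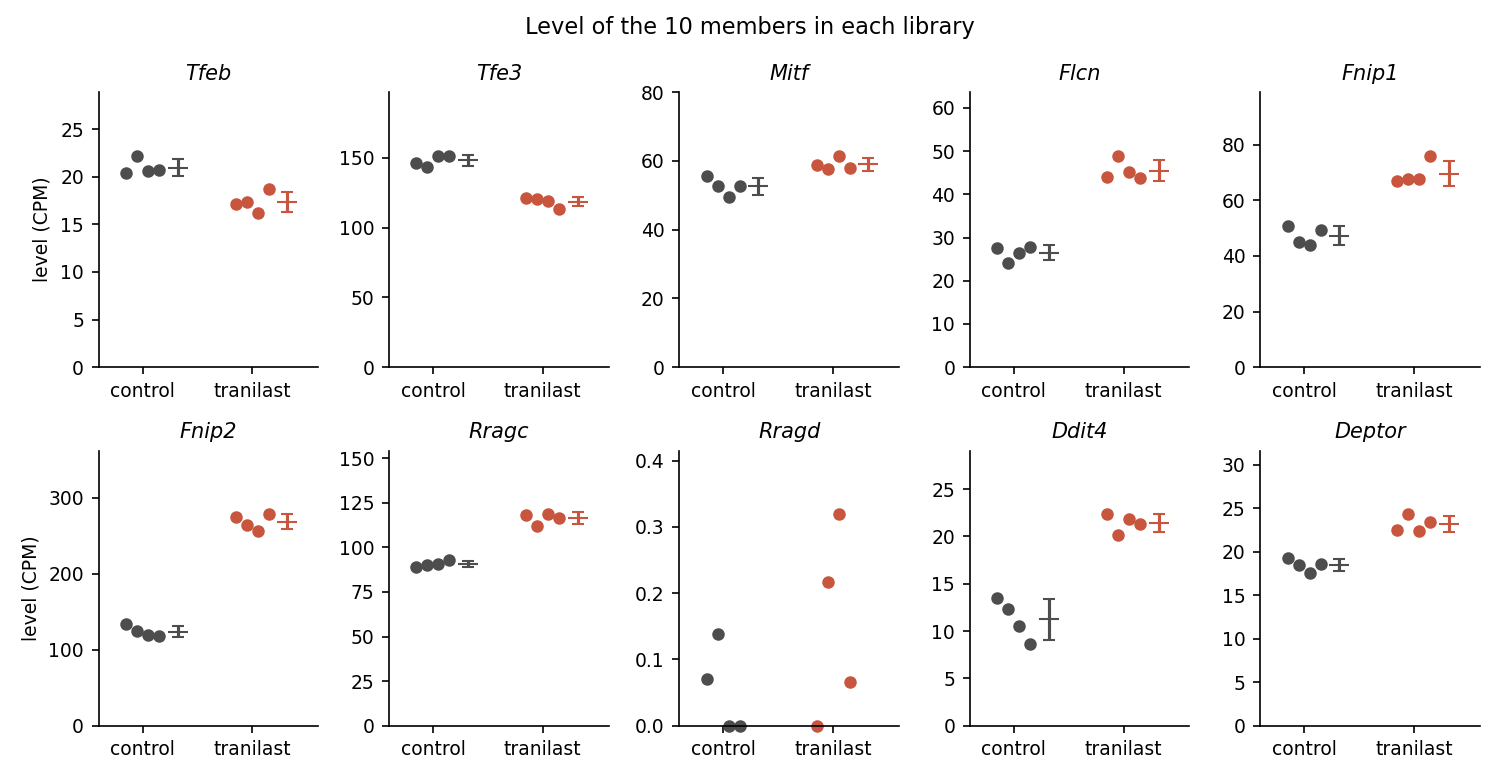
Level of each of the 10 members in CPM (y axis from 0) in the 4 control (grey) and 4 tranilast (red) libraries; points are libraries and bars give the mean and SD of 4, left out for Rragd. For the 9 tested members the groups do not overlap, with Tfeb and Tfe3 lower and the other 7 higher with tranilast, and Rragd stays at 0 to 4 counts.

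Among the transcription factors, Tfe3 and Tfeb transcripts were lower with tranilast when measured as counts, and Mitf was slightly higher. Tfe3 (ENSMUSG00000000134), on the plus strand at chrX:7762560-7775202, was measured at 146, 143, 152 and 152 CPM in the control libraries and at 121, 121, 119 and 114 CPM with tranilast. All 4 tranilast libraries lay below the lowest control library. The mean was 148 ± 4.16 CPM in controls and 119 ± 3.56 CPM with tranilast (SD, n = 4 libraries), a log2 fold change of -0.32 (SE 0.0366, 95% interval -0.40 to -0.24, edgeR adjusted p = 6.6e-07). Tfeb (ENSMUSG00000023990), at chr17:47737030-47792419 on the plus strand, stood at 20.3, 22.2, 20.6 and 20.7 CPM in controls and at 17.1, 17.4, 16.2 and 18.7 CPM with tranilast. Control replicate 2 was the highest and tranilast replicate 3 the lowest, and the groups were apart by less than 2 CPM. The log2 fold change of Tfeb was -0.27 (95% interval -0.43 to -0.11, edgeR adjusted p = 0.00628). Mitf (ENSMUSG00000035158), at chr6:97807052-98021349 on the plus strand, gave 55.6, 52.7, 49.5 and 52.8 CPM in controls and 58.7, 57.5, 61.6 and 58.1 CPM with tranilast. Its groups were separate by a narrow margin, and the log2 fold change of 0.16 (95% interval 0.06 to 0.27, edgeR adjusted p = 0.00839) was the smallest of the 9. Tfec, the remaining gene of the family, had 2 to 7 counts per library and was not tested.

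On the FPKM scale, which divides by transcript length, these 3 calls were not made. Tfe3 stood at 58.8, 53.6, 62.1 and 64.1 FPKM in controls and at 59.7, 58.0, 59.2 and 53.9 FPKM with tranilast, and the groups overlapped. In the limma fit of log2(FPKM + 1), the log2 difference of Tfe3 was -0.04 (95% interval -0.17 to 0.08, adjusted p = 0.533), that of Tfeb -0.11 (95% interval -0.25 to 0.02, adjusted p = 0.148) and that of Mitf 0.15 (95% interval -0.05 to 0.36, adjusted p = 0.182). Against a median of all genes that lay 0.12 higher with library size alone, Tfeb was not called (log2 fold change -0.15, edgeR adjusted p = 0.0961). The transcript length implied by the deposited counts and FPKM values was also compared between groups. For Tfe3 it was 2275 to 2554 bases in the control libraries and 2091 to 2197 bases with tranilast, and for Tfeb 2339 to 2342 bases and 2270 to 2336 bases, both without overlap, which held for 5.5% of the 8659 genes compared. That of Mitf overlapped, at 3188 to 4289 bases in controls and 3704 to 4289 bases with tranilast, and that of Rragc was 2593 to 2600 bases in all 8 libraries.

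Per transcript length, Tfe3 was the most abundant of the family. Of the summed FPKM of the 4 family genes, Tfe3 made up 71.0%, 71.9%, 72.5% and 74.7% in the control libraries and 72.7%, 72.4%, 70.4% and 68.9% with tranilast. Mitf made up 16.8% ± 1.58 in controls and 19.0% ± 1.53 with tranilast, Tfeb 10.5% ± 1.13 and 9.71% ± 0.891, and Tfec 0.181% ± 0.0796 and 0.187% ± 0.0443 (SD, n = 4 libraries). On FPKM values the ranges of each gene overlapped between the groups, whereas on counts the ratio of Mitf to Tfeb, at 2.37 to 2.73 in controls and 3.11 to 3.79 with tranilast, did not overlap, and neither did that of Mitf to Tfe3. Ratios between paralogs were compared within each library, which frees them of the library scale. The FPKM ratio of Mitf to Tfeb was 1.61 ± 0.250 in controls and 1.97 ± 0.251 with tranilast (exact permutation p = 0.143), that of Mitf to Tfe3 0.232 ± 0.0259 and 0.268 ± 0.0274 (exact permutation p = 0.114), and that of Tfe3 to Tfeb 6.96 ± 0.740 and 7.37 ± 0.746 (exact permutation p = 0.486).

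The folliculin complex genes rose together and by more than the other tested members except Ddit4. Flcn (ENSMUSG00000032633), which encodes folliculin and lies at chr11:59791408-59810016 on the minus strand, was measured at 27.7, 24.1, 26.3 and 27.9 CPM in the control libraries. With tranilast the 4 libraries gave 44.1, 49.0, 45.1 and 43.7 CPM. Every tranilast library exceeded every control library by more than 15 CPM, and the fold change was 1.72 (log2 0.78, SE 0.0629, 95% interval 0.65 to 0.91, edgeR adjusted p = 7e-09). Fnip2 (ENSMUSG00000061175), whose product binds folliculin, lies at chr3:79455974-79567796 on the minus strand. It stood at 134, 124, 120 and 117 CPM in controls and at 275, 264, 257 and 279 CPM with tranilast. This was the widest separation among the members, 2.17-fold (log2 1.12, SE 0.0412, 95% interval 1.03 to 1.21, edgeR adjusted p = 1.1e-13). Fnip1 (ENSMUSG00000035992), the paralog of Fnip2 at chr11:54438199-54518235 on the plus strand, gave 50.9, 45.0, 43.9 and 49.3 CPM in controls and 66.8, 67.8, 67.8 and 76.2 CPM with tranilast. Tranilast replicate 4 lay above the other 3, which were about 1 CPM apart, and without it the log2 fold change was 0.52 in place of 0.56 (95% interval 0.44 to 0.68, edgeR adjusted p = 1.9e-07).

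Because Fnip2 rose by more than Fnip1, the makeup of the FNIP pair shifted. The FPKM ratio of Fnip2 to Fnip1 was 2.85, 2.96, 2.83 and 2.63 in the control libraries and 4.35, 4.27, 4.05 and 3.89 with tranilast. The groups did not overlap (exact two-sided permutation p = 0.0286, the smallest that 4 libraries against 4 can give). After adjustment over the 5 paralog ratios compared, the exact permutation p-value was 0.143, and no ratio was called. With 4 libraries against 4, a lone ratio at the smallest p cannot adjust below 0.143 over 5 ratios. The absence of a call therefore says nothing against the separation of Fnip2 to Fnip1. The ratio of Rragd to Rragc could not be read, with Rragd at 0 to 4 counts. On deposited counts in place of FPKM, 3 of the 5 ratios were called at an adjusted exact permutation p of 0.0476, namely Fnip2 to Fnip1, Mitf to Tfeb and Mitf to Tfe3. All 3 had the smallest exact permutation p of 0.0286, and only their number brought the adjusted value under 0.05. Fnip2 accounted for 73.8% ± 0.967 of the summed FNIP FPKM in controls and 80.5% ± 0.801 with tranilast (SD, n = 4 libraries).

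**Figure D2:**
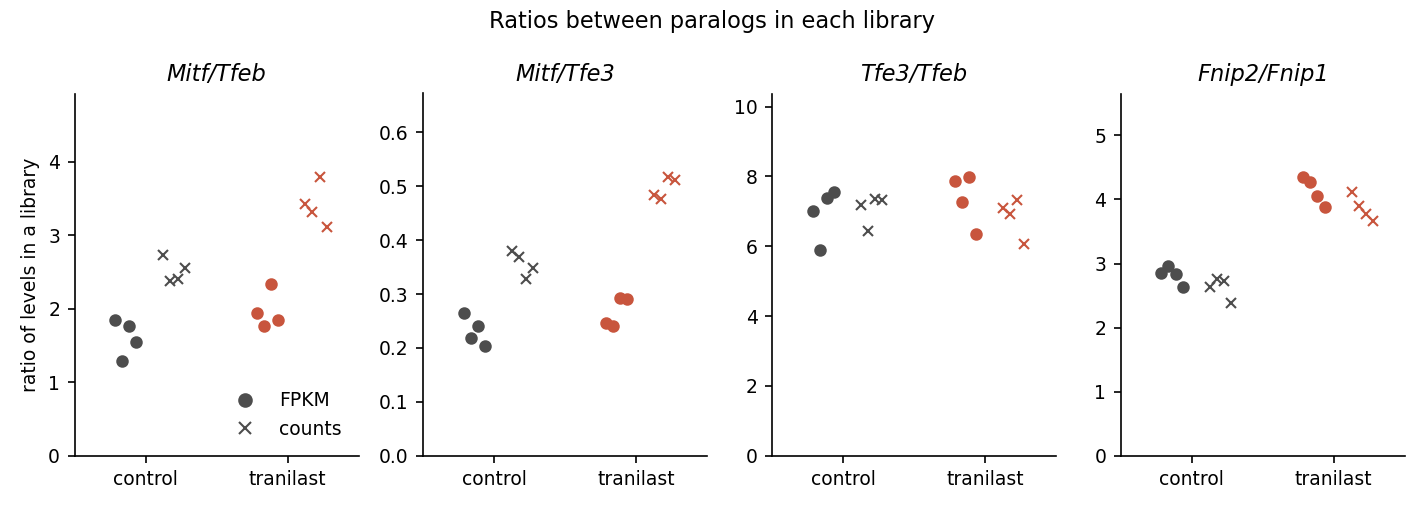
Ratio between paralogs in each control (grey) and tranilast (red) library (y axes from 0), from FPKM values (circles) and from counts with 0.5 added (crosses). The Fnip2 to Fnip1 ratio moved from 2.63 to 2.96 up to 3.89 to 4.35 on FPKM values, while the other FPKM ratios overlapped between groups.

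Of the Rag GTPase genes, Rragc rose and Rragd was barely detected. Rragc (ENSMUSG00000028646), at chr4:123917446-123936997 on the plus strand, encodes RagC, the partner of RagA or RagB that folliculin acts on. It gave 88.8, 89.9, 90.8 and 93.1 CPM in the control libraries and 118, 112, 119 and 117 CPM with tranilast. The spread within each group was narrow, and the log2 fold change was 0.36 (SE 0.0378, 95% interval 0.28 to 0.44, edgeR adjusted p = 2.2e-07). Rragd (ENSMUSG00000028278), at chr4:32983037-33022180 on the plus strand, had 1, 2, 0 and 0 counts in controls and 0, 3, 4 and 1 counts with tranilast. These 3 and 8 counts in all lie at or near the floor of 3 counts per library, so no fold change is given (exact two-sided permutation p = 0.371), and with so few counts no difference could be seen. Nearly all RagC-type transcripts thus came from Rragc in both groups. The RagA and RagB genes, Rraga and Rragb, were also higher with tranilast, by log2 0.19 (edgeR adjusted p = 0.00203) and 0.40 (edgeR adjusted p = 0.00309), and Rraga made up 86.6% ± 1.36 of their summed FPKM in controls and 85.5% ± 1.34 with tranilast (SD, n = 4 libraries).

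Both inhibitors of mTORC1 were higher with tranilast. Ddit4 (ENSMUSG00000020108), at chr10:59949669-59951834 on the minus strand, encodes REDD1, a stress-induced protein that restrains mTORC1 through the TSC complex. It was measured at 13.5, 12.4, 10.5 and 8.58 CPM in the control libraries and at 22.4, 20.1, 21.9 and 21.3 CPM with tranilast. The control libraries were more spread than the tranilast libraries, with replicate 4 the lowest, and the fold change was 1.91 (log2 0.93, SE 0.112, 95% interval 0.69 to 1.17, edgeR adjusted p = 1.3e-06). Deptor (ENSMUSG00000022419), at chr15:55112317-55259271 on the plus strand, encodes a subunit that binds mTOR and inhibits it. It gave 19.3, 18.4, 17.6 and 18.6 CPM in controls and 22.4, 24.3, 22.4 and 23.4 CPM with tranilast. The groups were about 3 CPM apart, and the log2 fold change was 0.32 (SE 0.0726, 95% interval 0.17 to 0.48, edgeR adjusted p = 0.00095).

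**Figure D3:**
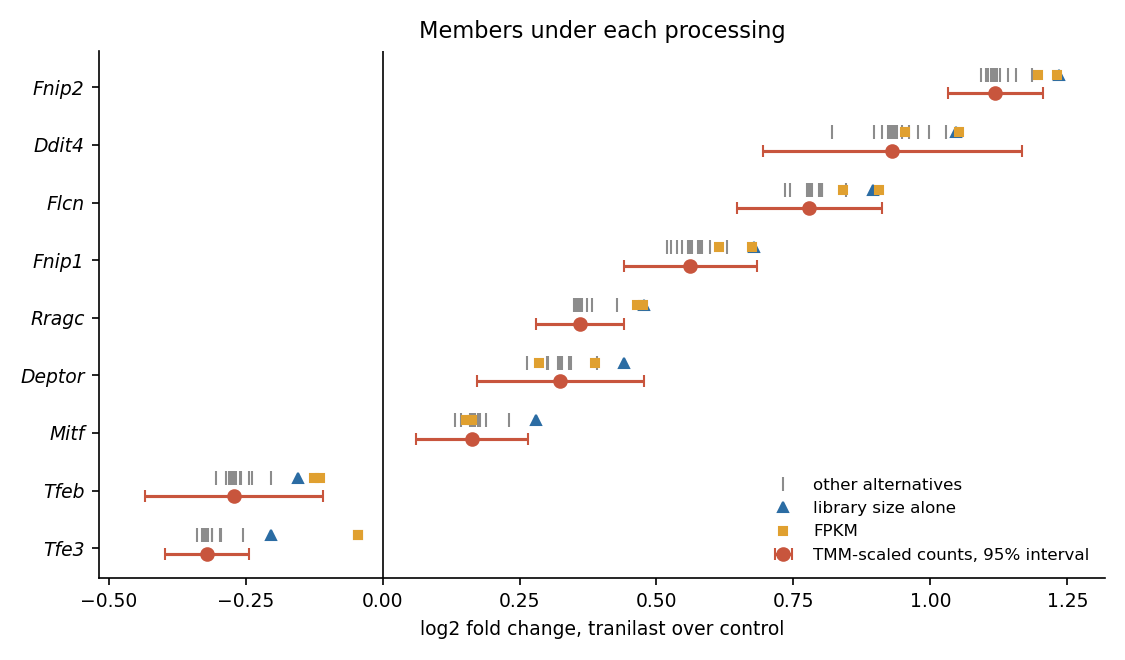
Log2 fold change of the 9 tested members, tranilast over control (x axis), with its 95% interval from TMM-scaled counts (red) and its value under the alternatives (grey bars), library size alone (triangles) and FPKM (squares). Fnip2 has the highest value at 1.12 and Tfe3 the lowest at -0.32, and the FPKM values of Tfe3 lie near 0.

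Compared per transcript length, the members covered a wide range of levels. In controls Tfe3 was the highest at 59.6 ± 4.60 FPKM, followed by Rragc at 33.5 ± 0.696, Fnip2 at 20.4 ± 1.41 and Mitf at 13.8 ± 1.72 FPKM (SD, n = 4 libraries), and the ranges of these 4 did not overlap. Tfeb, Flcn, Fnip1 and Ddit4 followed between 8.59 and 6.15 FPKM, each overlapping the next in that order, and Deptor was at 2.15 ± 0.0856 FPKM. With tranilast Tfe3 was again the highest at 57.7 ± 2.62 FPKM. Fnip2 at 48.0 ± 1.42 FPKM now overlapped Rragc at 46.7 ± 1.17 FPKM. Flcn, at 15.8 ± 1.06 FPKM, overlapped Mitf at 15.4 ± 1.41 FPKM, and Ddit4 at 12.7 ± 0.538 overlapped Fnip1 at 11.6 ± 0.734 FPKM. Tfeb, at 7.87 ± 0.476 FPKM, was then below Flcn, Fnip1 and Ddit4 without overlap with any of them, where in controls it had overlapped Flcn.

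**Figure D4:**
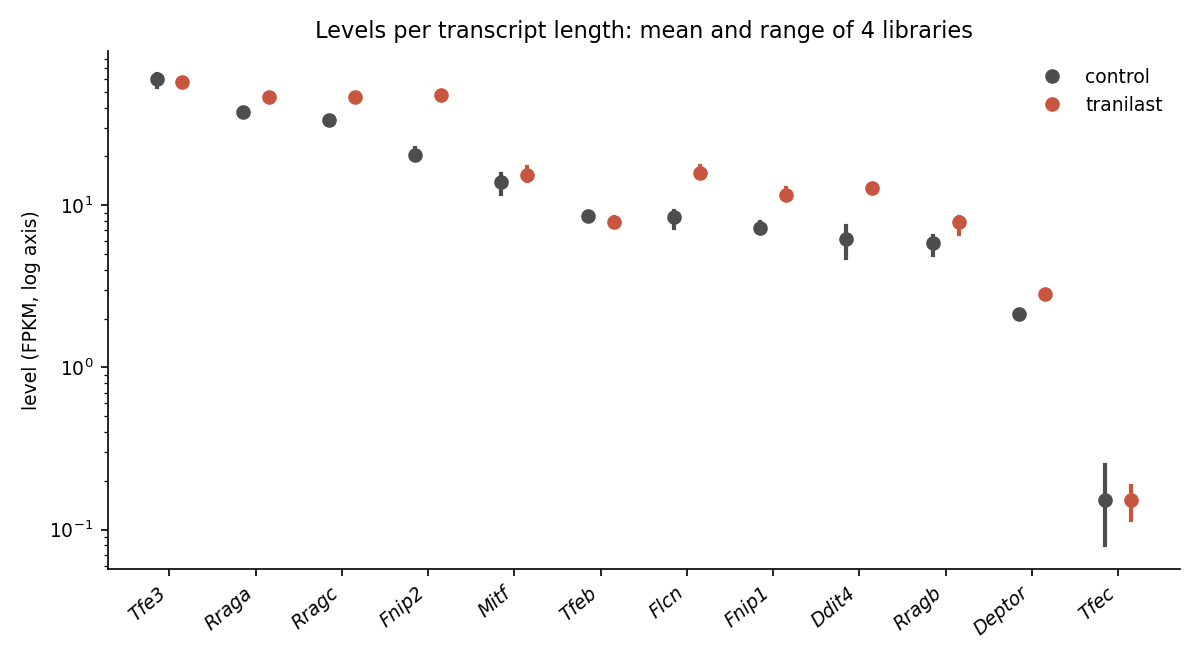
Level per transcript length (FPKM, log axis) of the members and of Rraga, Rragb and Tfec in control (grey) and tranilast (red) libraries; points are means and bars the range of 4 libraries. Fnip2 moved from 20.4 to 48.0 FPKM and Flcn from 8.40 to 15.8 FPKM, and Rragd, at 0 in 3 libraries, is not drawn.

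The genes whose level followed Tfeb and Flcn most closely over the 8 libraries were named by the Pearson correlation of log2 CPM among 8661 other genes. For Flcn these were Sowahc (r = 0.998), Arap1 (r = 0.998) and Zfc3h1 (r = 0.996). For Tfeb they were Rprd1b (r = 0.990), St6galnac6 (r = 0.986) and Timm17a (r = 0.985). The correlations share the difference between the groups: 1206 genes reached 0.9 with Flcn and 594 with Tfeb. No such genes were sought for Rragd, which was near 0.

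The members were set beside 101 other genes of the same pathways in 15 lists, and 96 of these were tested. The lists were chosen with earlier results of these data known, so their counts are a description and not a test. Of the 96, 43 were called higher and 18 lower, where 28.2% of all genes tested were called higher and 28.8% lower. Their median log2 fold change was 0.10 against 0.01 for all genes tested. The list of TFEB, TFE3 and MITF targets held 33 genes, Flcn, Fnip2, Rragc and Rragd included. Of its 30 tested genes 20 were higher and 3 lower, with a median of 0.35. With library size alone 24 of these genes were higher and 2 lower, where 4613 of all 10770 genes tested were called higher and 1893 lower. With log2(FPKM + 0.1) values 24 were higher and 1 lower, where 3959 of all genes tested were called higher and 1663 lower. The highest were Sqstm1, the autophagy receptor p62, at a log2 fold change of 1.56 (edgeR adjusted p = 9.9e-17), and Fnip2. The lowest was Hif1a at -0.24 (edgeR adjusted p = 1.2e-05). Of 8 ATF4 targets shared with this circuit, Ddit4 and Flcn among them, all 8 were higher with a median of 1.12, led by Sesn2 at 1.91 (edgeR adjusted p = 8.9e-13) and Trib3 at 1.84 (edgeR adjusted p = 2.8e-09). Of 8 listed p53 targets, Ddit4 among them, 5 were higher and 1 was lower, with a median of 0.24.

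Around the Rag GTPases, the genes that feed and restrain them moved unevenly, and several list counts were near the 28.2% higher and 28.8% lower of all genes tested. Of the 5 genes for lysosomal amino acid and lipid inputs 4 were higher, with Mcoln1, a lysosomal calcium channel, at 0.70 (edgeR adjusted p = 5.9e-09) and Npc1, a cholesterol exporter, at 0.59 (edgeR adjusted p = 2e-09). Of 7 cytosolic amino acid sensor genes 3 were higher and 1 lower, with Sesn2 at 1.91 and Bmt2, which encodes SAMTOR, at -0.28 (edgeR adjusted p = 1.9e-05). Sesn3, also called higher, had only 0 to 29 counts. It was not tested under the filter of at least 10 counts in every library, where 2 sensor genes were higher. Of 7 GATOR1 and KICSTOR genes 2 were higher, with Nprl2 the highest at 0.84 (edgeR adjusted p = 1.5e-05), a share near that of all genes tested. With library size alone 6 were called higher, where 4613 of the 10770 genes tested were. Ragulator and GATOR2, with 5 genes each, had medians of 0.05 and 0.04 over genes that went both ways. Their calls, Lamtor5 lower, Sec13 and Seh1l lower and Wdr59 higher, were each lost under at least 4 of the 19 alternatives. Seh1l, at -0.09, turned to 0.03 with library size alone. Among the fits with a library left out, Seh1l was called only without control replicate 1 or 3. The values without the others were -0.08 (control replicate 2), -0.08 (control replicate 4), -0.09 (tranilast replicate 1), -0.09 (tranilast replicate 2), -0.10 (tranilast replicate 3) and -0.07 (tranilast replicate 4). Wdr59 lost its call if control replicate 2 (0.16), tranilast replicate 1 (0.24) or tranilast replicate 2 (0.26) was left out. With library size alone 2 Ragulator genes were called higher and none lower, where 4613 of the 10770 genes tested were called higher and 1893 lower.

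Downstream and upstream of the members, list counts are set against the 28.2% higher and 28.8% lower of all genes tested. Deptor had the highest change among the 8 tested mTORC1 and mTORC2 subunits, of which 3 were higher and none lower, with a median of 0.09. Mapkap1, at 0.18, was not called without control replicate 3 (0.18) or 4 (0.15) or tranilast replicate 1 (0.10), and without control replicate 3 or without control replicate 4 only 1 subunit was called. With library size alone 7 were called higher, where 4613 of the 10770 genes tested were called higher and 1893 lower. With log2(FPKM + 0.1) values 3959 of the genes tested were called higher and 1663 lower. Of the 6 tested TSC, Rheb and REDD genes 4 were higher, led by Ddit4 and by Rhebl1 at 0.76 (edgeR adjusted p = 0.0117), which was not called without tranilast replicate 2 (0.61). The 11 genes for TFEB phosphatases, kinases and 14-3-3 proteins went mostly the other way, 8 lower and 2 higher with a median of -0.20 (6 lower and 3 higher with library size alone, 5 lower and 2 higher on FPKM values, each with a median of -0.09). The lowest were the 14-3-3 genes Ywhaz at -0.42 (edgeR adjusted p = 1.1e-10) and Ywhae at -0.30 (edgeR adjusted p = 1.3e-08), and the highest the kinase gene Map4k3 at 0.53 (edgeR adjusted p = 2.4e-05) and the calcineurin gene Ppp3ca at 0.20 (edgeR adjusted p = 0.00553). Of 10 mTORC1 substrates and outputs, Tfeb and Tfe3 among them, 4 were lower and 2 higher, against 28.8% and 28.2% of all genes tested. Lpin1 was at 1.20 (edgeR adjusted p = 7.3e-10) and the autophagy kinase gene Ulk1 at 1.14 (edgeR adjusted p = 7.8e-10). Eif4e was at -0.65 (edgeR adjusted p = 4.3e-11) and Larp1 at -0.34 (edgeR adjusted p = 7e-08). The median of this list was -0.03, and 0.08 with library size alone, where the balance turned to 4 higher and 3 lower; on FPKM values it was 4 higher and 2 lower.

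**Figure D5:**
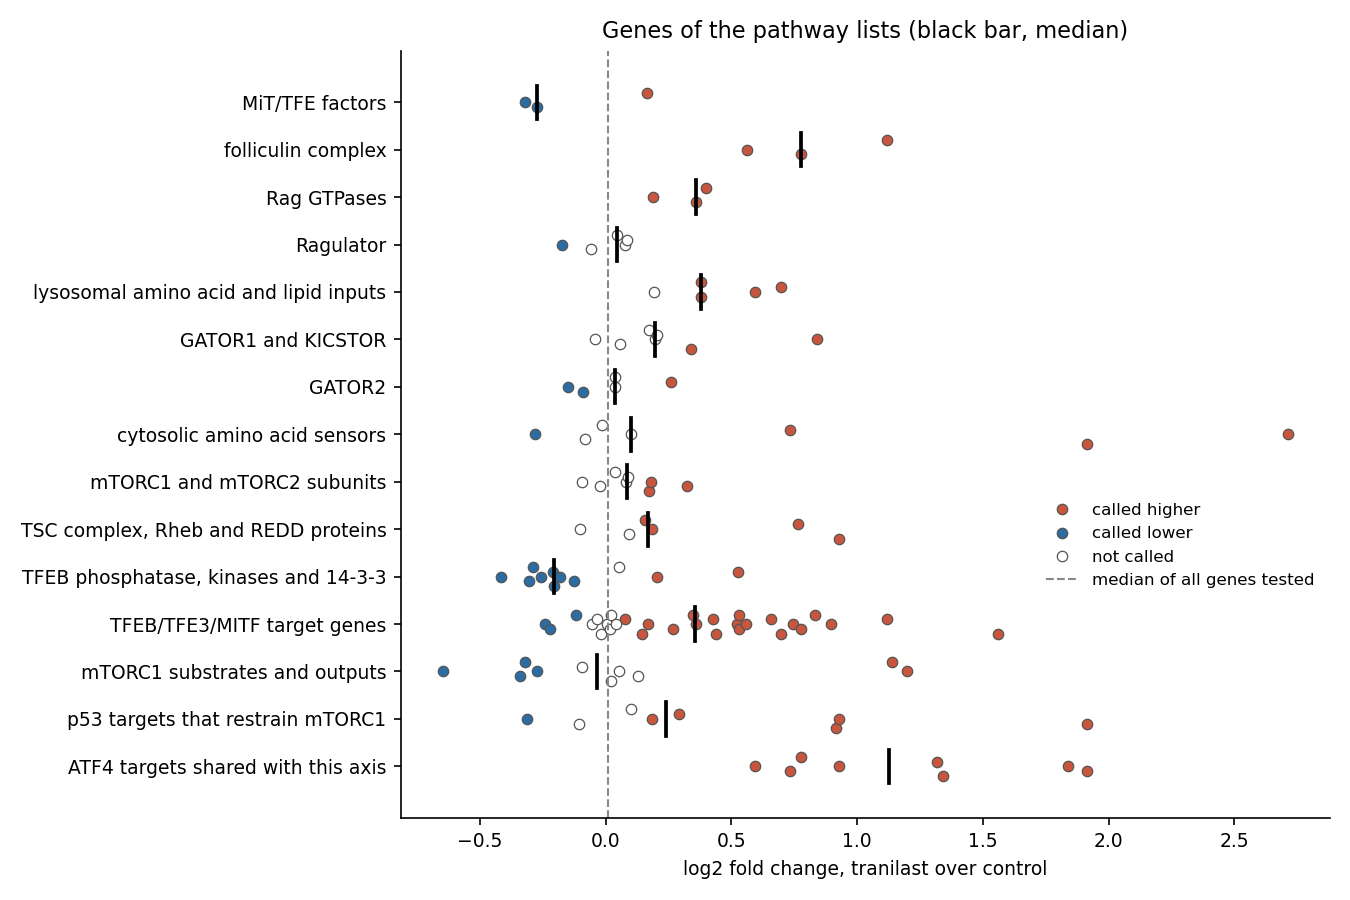
Log2 fold change, tranilast over control (x axis), of each tested gene in the 15 lists, with calls higher (red), lower (blue) and not made (open), the median of each list (black bar) and that of all genes tested (dashed line). The lists were chosen with earlier results of these data known. All 8 ATF4 targets and the 3 folliculin complex genes lie to the right of the dashed line. The median of the list of TFEB phosphatase, kinase and 14-3-3 genes lies to the left, at -0.20.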

How the data were processed

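Per the methods of the study, poly-A RNA was sequenced as paired-end libraries. The deposited table holds, per gene and library, an estimated count that need not be a whole number (92.7% to 93.9% of the values of a library were exactly whole, genes at 0 included), and an FPKM value, scaled by the authors to length and depth; the aligner, counter, strand setting and genome build are not given in the sources used here. Columns A1 to A4 (control) and B1 to B4 (tranilast) were paired with the samples by their description labels. Estimated counts were rounded, filtered with filterByExpr, scaled by TMM to CPM and compared by quasi-likelihood in edgeR 4.0.16 (R 4.3.3), with p-values adjusted over 10770 genes (Benjamini-Hochberg). The script was tested on simulated data. Intervals are 95% intervals. Paralog ratios and Rragd were compared with exact two-sided permutation tests, with 0.1 added to CPM for Rragd. Alternatives used RLE and upper-quartile factors, library size, other filters, DESeq2 1.42.0, limma 3.58.1 (voom, and log2(FPKM + 1) or log2(FPKM + 0.1)), a replicate block, each library left out and thinning. Replicates of a group differed by more than counting noise (chi-square per degree of freedom 2.51 to 5.46).

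The members and lists were chosen with earlier results of these data known. Genes were named by rule: the members, the genes of the 3 core lists, the called genes with the 2 highest and 2 lowest changes of each other list, and the 3 genes most correlated with Tfeb and with Flcn; some results under this rule are not reported here. Of the marker lists the most abundant gene and markers at 0 were named, and, chosen after seeing the values, macrophage markers near 0 and those with the lowest and highest change. Ddit3 occurs 2 times in the table, and the entry with more counts was used. Gene coordinates, in the GRCm38 build, come from GENCODE M21 and were matched by identifier for 21973 of 22063 genes; window sequences are from RefSeq. Other annotated genes overlap Mitf, Fnip1, Fnip2, Rragc, Rragd and Deptor; of these only Gm17359, opposite Fnip2, is in the table, at 0 counts, and without strand reads of an antisense partner cannot be told apart.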

Additional observations from a re-analysis of the deposited data

Results flagged for a closer look

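Of 76 groups of 4 libraries examined, for the tested members, the other tested genes named from the pathway lists and the readable paralog ratios, 2 held a library that stood apart from the rest; chance alone would mark about 1 in 20 groups. Fnip1 in tranilast replicate 4 was at log2 CPM 6.25, where the other 3 tranilast libraries lay between 6.06 and 6.09, and its gap to the nearest library was 0.886 of the range of the group. Rraga in tranilast replicate 2 was at 6.24, the others between 6.13 and 6.15 (0.843 of the range). Fnip1 and Rraga each kept their call with any library left out.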

How the results depend on the processing

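Of the 9 tested members, Flcn, Fnip1, Fnip2, Rragc, Ddit4 and Deptor kept their direction and call under all 19 alternatives, with log2 fold changes between 0.73 and 0.91 for Flcn, 0.52 and 0.68 for Fnip1, 1.09 and 1.24 for Fnip2, 0.35 and 0.48 for Rragc, 0.82 and 1.05 for Ddit4 and 0.26 and 0.44 for Deptor. The count of members called higher was 7 and fell to 6 with the FPKM values, where Mitf was not called; that of members called lower was 2, 1 with library size alone and 0 with log2(FPKM + 1) and with log2(FPKM + 0.1), and the cause was not tested. With any library left out, 7 members were higher and 2 lower. Genes called across the table numbered 6143 and ranged from 5618 to 6506 over the alternatives. Genes called with a change of 1.5 or more in log2 numbered 120, 322 without a filter, 66 with at least 10 counts in every library and 32 with log2(FPKM + 1). Paralog ratios called were 0 with FPKM values, where a lone ratio at the smallest p could not be called, and 3 with counts. Without control replicate 1, 2 FPKM ratios did not overlap in place of 1. Seh1l reversed from -0.090 to 0.027 with library size alone. The permutation p of Rragd was 0.371, and 0.400 after thinning. With the replicate block, 7 members were called higher, 2 lower and 6009 genes across the table. Libraries with the same number correlated in their deviations at -0.056, -0.032, 0.004 and 0.096, and those with unlike numbers at -0.183 to 0.208. No deviation shared by number was thus seen, but so few libraries cannot settle whether the numbers pair them, and the labels do not say. Rragd and Tfec, at 0 to 4 and 2 to 7 counts, did not pass the filter; whether low expression or depth limits them was not tested.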

Other observations

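Sqstm1 was at 261 ± 6.70 CPM in controls and 771 ± 34.4 CPM with tranilast, and Sesn2 at 15.7 ± 2.58 and 59.1 ± 1.94 CPM (SD, n = 4 libraries). The cholangiocyte marker list, in which Spp1 was the most abundant gene, took 0.397%, 0.431%, 0.401% and 0.387% of the counts in the control libraries and 0.355%, 0.334%, 0.348% and 0.316% with tranilast. Spp1 carried nearly all of this sum, at 41980 to 64910 counts. Krt19 had 0 to 2, Epcam 0 to 6, Sox9 0 to 1 and Krt7 0 counts, so these shares describe Spp1 and not a cell type. The TMM factors were 0.965, 0.956, 0.958 and 0.962 in the control libraries and 1.037, 1.044, 1.040 and 1.045 with tranilast.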
